A study of Mus musculus with 3 samples.

Results

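The Ypel family comprises the genes Ypel1, Ypel2, Ypel3, Ypel4 and Ypel5, and all 5 were found on the array by gene symbol, out of 19505 named genes. Each is reported by 1 probe set, a group of probes summarised into 1 value. The family was chosen by the log2 differences of Ypel1 from control in these same arrays, so the differences from control are given as a description. Levels are RMA values (robust multi-array average, a background-subtracted and between-array normalised probe set summary), read here as log2, on which a difference of 1 is 2-fold. The labels state neither the log base nor the variant of RMA, and the highest value of 19.7 is above what log2 values of a scanner usually reach, so every ratio and 2-fold threshold rests on that reading.

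The cells were plasmacytoid dendritic cells, a dendritic cell type specialised in type I interferon production, derived from marrow of wild-type male BALB/c mice aged 4 to 5 weeks. Per the labels, the culture ran for 6 to 9 days with 100 ng/mL of Flt3 ligand, CpG oligodeoxynucleotides, which stimulate TLR9, then induced maturation, and mature cells were sorted. The study asked how the Astragalus saponin astragaloside IV and the Sophora alkaloid oxymatrine inhibit the migration of these cells. One array held cells given astragaloside IV for 12 h and then the chemokine CCL21 for 1 h, another held cells given oxymatrine and CCL21 for the same times, and the last held control cells. The labels give no dose and do not say if CCL21 or a vehicle was added to control cells, so a compound and the CCL21 step cannot be told apart in a difference from control. With 1 array per group there are no replicates, and no test was run.

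Ypel proteins are small zinc-binding proteins named after Yippee of Drosophila, and they are conserved across eukaryotes. Ypel1 to Ypel4 are close copies of one another, while Ypel5 is more distant. The family is known for links to cell division and growth arrest. Human YPEL3 is a target of p53 whose overproduction halts growth, and mouse Ypel3 was also described in myeloid precursor cells as a small unstable apoptotic protein. Human YPEL5 binds the CTLH complex, a ubiquitin ligase built around RANBP9 and its partners. Overproduced mouse Ypel1 changes the shape of fibroblasts.

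The lineage label was checked first. Of 19 measured markers of plasmacytoid dendritic cells, 17 were above background, which was set at a log2 level of 5.28 from olfactory and vomeronasal receptor genes. Tcf4, which maintains the lineage, was at 14.37 in each array, and Siglech was at 8.99 with astragaloside IV, 9.02 with oxymatrine and 8.99 in control. Markers of other lineages did not all go one way. Of type 1 dendritic cell genes, Xcr1 and Clec9a were below background in all 3 arrays, while Batf3, Itgae and Wdfy4 were above it. Of B cell genes, Cd79a and Pax5 were below it, while Ms4a1 was above it, as was Cd79b at 9.91 with astragaloside IV, 10.13 with oxymatrine and 10.13 in control. The T cell genes Cd3e and Cd3d were below background in each array, as were Nkg7 and Ncr1 on the same lymphoid list. Others on that list, Cd5, Il2rb and Gzmb, were above it in each array. Cd5 was at 7.73 in both treated arrays and 8.17 in control, and Gzmb at 8.73 with oxymatrine and 8.99 in both other arrays. In all, 8 of 12 measured conventional dendritic cell markers, 8 of 11 monocyte, macrophage and neutrophil markers and 5 of 11 lymphoid markers were above background. Over all named genes, 10671 of 19505 were above it, so these counts alone do not show those lineages to be present or absent. Some of these markers were bright. Adgre1 was at 13.98 with astragaloside IV and 14.12 in both other arrays. Lyz2 was at 13.88 and Sirpa at 14.90 in each array, all over the level of Siglech. Of the monocyte, macrophage and neutrophil markers 3 were below background, as were 4 conventional ones. The share of cells of other lineages was not tested.

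The bases upstream of Ypel1, Ypel3 and Ypel5 are shown because these 3 members were above background and only Ypel1 was 2-fold apart from control. They come from RefSeq (build GRCm38.p6) and give the 250 bases before the annotated start, 5′ to 3′ on the strand of the gene. Capitals mark CCAAT, the binding sequence of NF-Y, and GGGCGG, the GC box bound by Sp1-type factors, each on either strand. No 2 marked sites overlap. The plus-strand regions are chr16:17069889-17070138 for Ypel1, chr7:126776713-126776962 for Ypel3 and chr17:72836378-72836627 for Ypel5, the first of its 2 listed starts.
Ypel1: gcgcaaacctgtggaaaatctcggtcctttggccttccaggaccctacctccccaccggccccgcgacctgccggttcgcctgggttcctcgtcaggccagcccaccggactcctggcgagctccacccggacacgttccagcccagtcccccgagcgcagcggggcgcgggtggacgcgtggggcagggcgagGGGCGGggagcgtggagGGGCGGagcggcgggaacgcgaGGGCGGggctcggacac
Ypel3: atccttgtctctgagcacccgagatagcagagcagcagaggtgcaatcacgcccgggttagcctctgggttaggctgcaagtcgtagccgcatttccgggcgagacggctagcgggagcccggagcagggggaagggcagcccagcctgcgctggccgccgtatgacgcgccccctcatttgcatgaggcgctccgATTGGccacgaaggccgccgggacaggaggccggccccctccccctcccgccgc
Ypel5: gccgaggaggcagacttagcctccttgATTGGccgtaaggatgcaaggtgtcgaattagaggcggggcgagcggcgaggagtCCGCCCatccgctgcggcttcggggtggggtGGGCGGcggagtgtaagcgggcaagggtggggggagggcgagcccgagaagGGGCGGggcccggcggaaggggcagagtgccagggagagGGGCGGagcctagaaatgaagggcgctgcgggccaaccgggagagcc

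The Ypel1 region holds 3 GC boxes and no CCAAT in these letters, the Ypel3 region 1 CCAAT and 0 GC boxes, and the Ypel5 region 1 CCAAT and 4 GC boxes. The region before the second Ypel5 start, not printed, holds 0 CCAAT and 2 GC boxes in 76.8% G and C, so a difference in CCAAT between Ypel1 and Ypel5 depends on the start chosen. Of 32851 RefSeq upstream regions of this length, 33.8% hold a CCAAT and 32.7% a GC box on either strand. G and C make up 74.0% of the bases for Ypel1, 68.8% for Ypel3 and 70.4% for Ypel5, against a median of 52.4% over all regions. The arrays measure transcripts only, so these matches describe the sequence and not binding.

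Ypel1 was the member that differed. Its log2 level was 10.05 with astragaloside IV, 10.08 with oxymatrine and 9.01 in control. Both treated arrays were high and close to each other, and the control array was low. The difference from control was 1.04 with astragaloside IV, a ratio of 2.06, and 1.08 with oxymatrine, a ratio of 2.11. Both differences use the same control array, so a low Ypel1 value in that 1 array would enter both. In such bulk samples a change in the share of cells that carry a transcript and a change in RNA per cell cannot be told apart.

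Ypel1 was 1 of 5 family members, and 1 of the 3 above background, that was 2-fold apart from control in each comparison. Among all 10671 genes above background, 21 or 0.197% were 2-fold apart with astragaloside IV, of which 4 (0.0375% of all) were higher. With oxymatrine 30 genes or 0.281% were 2-fold apart, of which 14 (0.131%) were higher. Only 2 genes had a larger positive difference than Ypel1 with astragaloside IV, and 8 with oxymatrine. These ranks reflect the choice of the family by Ypel1 and are no separate support. Centring each array on its median put the Ypel1 difference with astragaloside IV at 0.99, just under 2-fold, and that with oxymatrine at 1.01.

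**Figure D1:**
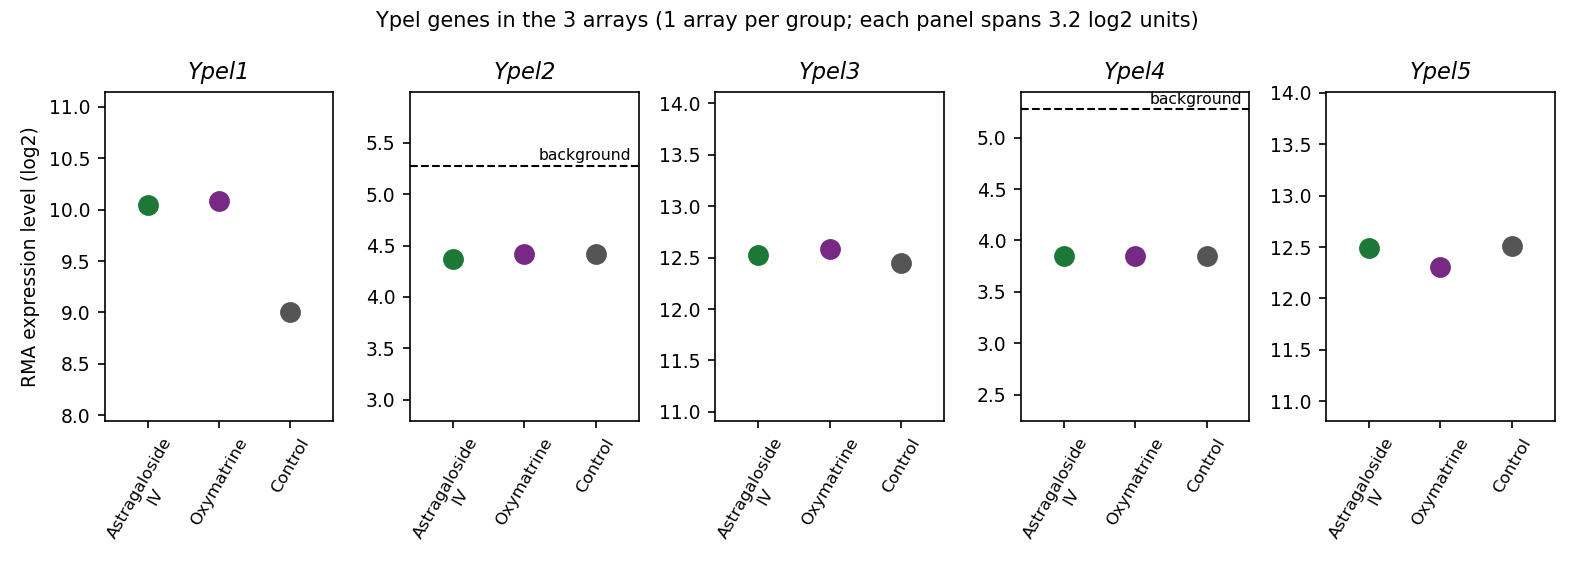
RMA expression level (log2) of each Ypel gene in the astragaloside IV, oxymatrine and control arrays, 1 point per array and no replicates; the dashed line is the background level of 5.28. The treated arrays stand about 1 log2 unit over control for Ypel1, while the other 4 genes are nearly level and Ypel2 and Ypel4 lie under the background line.

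Set against genes of its own level, Ypel1 stood at the edge. The family was chosen by these Ypel1 differences, so this position is a description only. The 533 genes of like level, itself included, had mean levels from 9.69 to 10.10. The SD of their differences from control was 0.17 with astragaloside IV, and the Ypel1 difference was 6.05 times as large. With oxymatrine the SD was 0.20 and the Ypel1 difference 5.50 times as large. Among the 532 other genes, differences ran from -0.77 to 0.63 with astragaloside IV and from -0.90 to 0.61 with oxymatrine, and 0 of them matched Ypel1 in size in either comparison. This SD describes how far apart genes of one brightness lay and is not a replicate error. Of the 533 genes, 137 (25.7%) had a difference of exactly 0 with astragaloside IV and 131 (24.6%) with oxymatrine. Such ties add little to the SD, which makes both multiples larger.

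Between the treated arrays Ypel1 did not stand apart. The astragaloside IV value minus the oxymatrine value was -0.03, or -0.19 times the like-level SD of 0.18, and 336 of the 532 other genes differed by at least as much. None of the Ypel genes was 2-fold apart in this comparison, in which 0.159% of all genes above background were. In order of level, oxymatrine and astragaloside IV were therefore not separated beyond the spread of like genes, and control lay below both.

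Ypel3, the member linked to p53 and growth arrest, had log2 levels of 12.53 with astragaloside IV, 12.58 with oxymatrine and 12.44 in control. The treated arrays were both slightly over control, by 0.09 (astragaloside IV) and 0.14 (oxymatrine). These differences were 0.65 and 0.86 times the SD of the 534 genes of like level, in the same order. Of the 533 others, 213 differed by at least as much with astragaloside IV and 164 with oxymatrine. The order of the 3 arrays was that of Ypel1, but no step in it exceeded the spread of like genes.

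Ypel5, the member that binds the CTLH ligase, had log2 levels of 12.50 with astragaloside IV, 12.31 with oxymatrine and 12.51 in control. The oxymatrine array was the low one. Its difference from control was -0.20, or -1.26 times the like-level SD, and 99 of 533 other genes differed by at least as much. With astragaloside IV the difference was -0.01, and it was slightly positive after quantile normalisation or lowess centring. Astragaloside IV minus oxymatrine was 0.18 for Ypel5, or 1.46 times the like-level SD, with 86 of 533 other genes at least as far apart. Of the 3 members above background, Ypel5 thus had its lowest value with oxymatrine, the array in which Ypel1 and Ypel3 had their highest. The treated arrays were close for those 2 genes: astragaloside IV minus oxymatrine was -0.19 (Ypel1) and -0.40 (Ypel3) times the like-level SD.

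Ypel2 and Ypel4 were below background in every array. Ypel2 was at 4.37 with astragaloside IV, 4.42 with oxymatrine and 4.42 in control, and Ypel4 was at 3.84 in all 3. Equal values are common in this table: 51.6% of genes above background shared a value between 2 or more arrays. Among genes below background of like level to Ypel2, 31.5% equalled control with astragaloside IV and 30.2% with oxymatrine. For Ypel4 these shares were 33.0% and 30.8%. No level or change can be read for these 2 genes. Since Ypel1 to Ypel4 are close copies, a probe for one could also catch transcripts of another, which was not tested here.

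**Figure D2:**
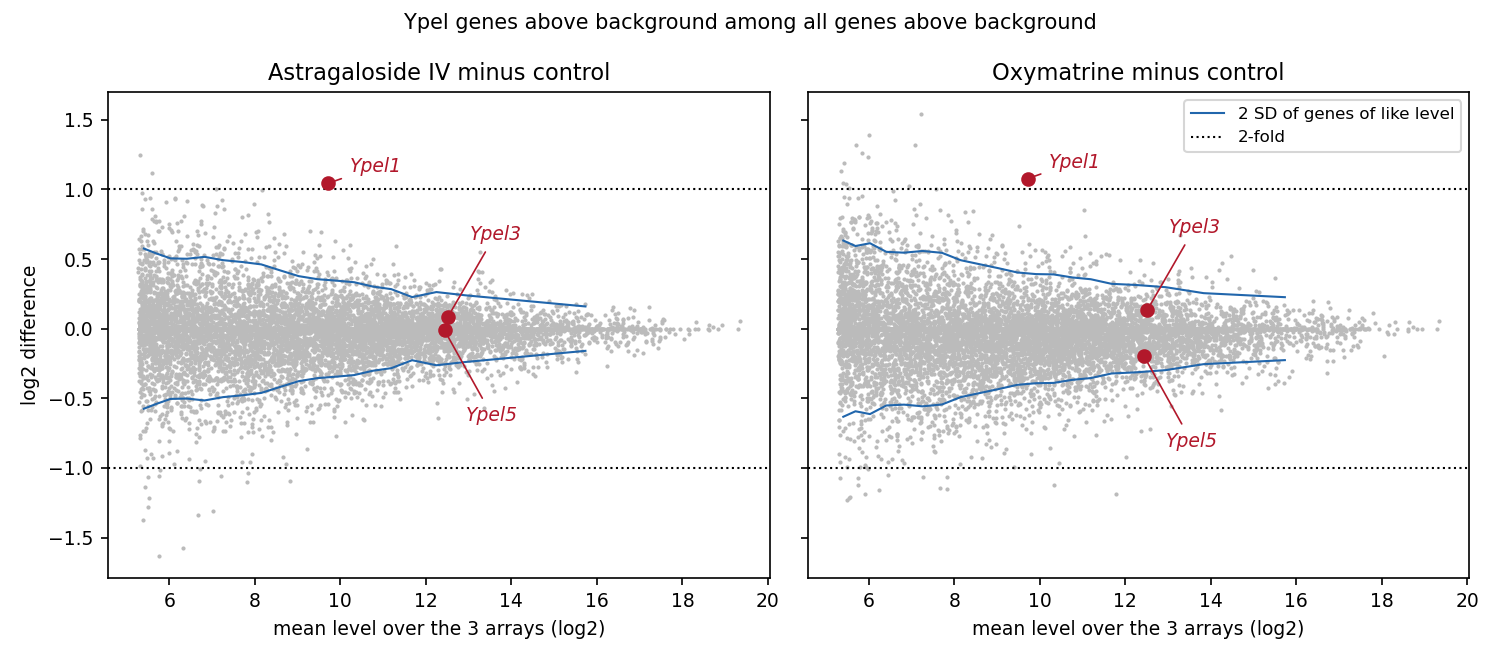
Log2 difference from control against mean log2 level for all 10671 genes above background (grey), with astragaloside IV on the left and oxymatrine on the right; blue lines are 2 SD of genes of like level in 20 bins, dotted lines are 2-fold, and red points are Ypel1, Ypel3 and Ypel5. Ypel1 lies past the 2-fold line at a level where the other genes of like level reach at most 0.63 with astragaloside IV and 0.61 with oxymatrine, and Ypel3 and Ypel5 lie inside the blue lines.

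Genes beside the Ypel loci were read from the RefSeq order. Ppil2, which encodes a cyclophilin-like protein, overlaps the end of Ypel1 on the opposite strand. It was at 12.52 with astragaloside IV, 12.52 with oxymatrine and 12.47 in control, a difference of 0.05 in both comparisons. Neither Ppil2 difference was near the size of those of Ypel1. The neighbour on the other side of Ypel1 was not among the named genes of the array, so that side was not read.

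Around the other members the neighbours were mixed. Beside Ypel2, the helicase gene Dhx40 had differences from control of 0.26 (astragaloside IV) and -0.09 (oxymatrine), and Gdpd1, a phosphodiesterase gene, of -0.34 in both. Beside Ypel4, Clp1, an RNA kinase gene, had differences of 0.14 and 0.19 in the same order, and Serping1, the C1 inhibitor gene, was below background. Both neighbours of Ypel3, Gdpd3 and Tbx6, were below background. Beside Ypel5, the receptor kinase gene Alk was below background, and Lbh had differences of 0 (astragaloside IV) and -0.14 (oxymatrine). None of the measured neighbours was 2-fold apart.

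Genes with the pattern most like that of Ypel1 were ranked by the distance between their 2 differences from control and those of Ypel1, over the 3 arrays. Of 10670 other genes with a mean level above background, 3 lay within 0.25 log2 units and 24 within 0.5. Of these, 0 of the 3 and 14 of the 24 were above background in every array. The nearest 6 named genes were St6galnac1, Iyd, Smim5, Ramp1, Stmn3 and Cdon, and 2 predicted genes ranked among them. The sialyltransferase gene St6galnac1 was at 5.73 with astragaloside IV, 5.74 with oxymatrine and 4.80 in control. The control values of St6galnac1, the deiodinase gene Iyd (4.69) and the cell surface receptor gene Cdon (5.05) were below background, so the sizes of their differences rest on a dim value.

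The other 3 genes were above background in each array. Smim5, a small membrane protein gene that was also on the list of plasmacytoid dendritic cell markers, was at 7.19 with astragaloside IV, 7.68 with oxymatrine and 6.36 in control. Ramp1, which encodes a subunit of the receptor for calcitonin gene-related peptide, was at 8.12 with astragaloside IV, 8.12 with oxymatrine and 7.30 in control. Stmn3, a stathmin family gene, was at 6.06, 6.57 and 5.34 in the same order. Its control value was only just over the background of 5.28, so the sizes of its differences also rest on a dim value.

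Genes linked to Ypel5 through the CTLH ligase showed smaller differences from control than Ypel1, though some differed more than Ypel5 itself. All 11 listed genes, Ube2h for the partner enzyme among them, were above background, and 0 were 2-fold apart. With astragaloside IV 3 were higher, 5 lower and 3 equal, and with oxymatrine 1 was higher, 5 lower and 5 equal, with a median of 0 in both, which is also the median of all genes. Maea, which encodes a RING subunit of the complex, was at 11.04 in both treated arrays and 11.29 in control. Rmnd5b, another RING subunit gene, was at 7.06 with astragaloside IV, 7.00 with oxymatrine and 7.26 in control. Wdr26, a substrate-binding subunit gene, had differences from control of 0.10 (astragaloside IV) and 0.28 (oxymatrine), and Armc8, a scaffold gene, of 0.23 and -0.10.

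Proteins that share the beta-tent fold of the Ypel proteins include cereblon, the centromere proteins of the Mis18 complex and RNA sensors of the interferon system. Of 10 measured genes, 9 were above background and 0 were 2-fold apart. With astragaloside IV 2 were higher, 4 lower and 3 equal (median 0), and with oxymatrine 1 was higher, 5 lower and 3 equal (median -0.04). The RNA sensor gene Ifih1 was equal to control with astragaloside IV and had a difference of -0.16 with oxymatrine. Crbn, which encodes cereblon, was at 11.34 with astragaloside IV, 11.23 with oxymatrine and 11.38 in control. Oip5, a Mis18 subunit gene, was at 8.01 with astragaloside IV and 7.81 in both other arrays.

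The p53 targets, the class to which human YPEL3 belongs, had 21 of 24 measured genes above background, and 0 were 2-fold apart. With astragaloside IV 2 were higher, 9 lower and 10 equal, and with oxymatrine 7 were higher, 6 lower and 8 equal, with a median of 0 in both. Btg2, an antiproliferative gene, was at 11.17 with astragaloside IV, 11.10 with oxymatrine and 11.56 in control. Sesn1, a stress-response gene, was at 7.90, 7.43 and 8.13 in the same order. Gadd45a was higher than control by 0.32 with oxymatrine and equal to it with astragaloside IV.

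Cell cycle inhibitors and quiescence genes were near 0 as well. Of 9 inhibitor and senescence genes above background, 5 were higher and 2 lower with astragaloside IV (median 0.04), and 1 was higher and 4 lower with oxymatrine (median 0). Cdkn2b, an inhibitor of CDK4 and CDK6, was at 8.91 with astragaloside IV, 8.83 with oxymatrine and 9.17 in control. Of 18 quiescence and FOXO-linked genes, 7 were higher and 6 lower with astragaloside IV, and 9 were higher and 6 lower with oxymatrine. Among them, Ccng2 differed by 0.30 with astragaloside IV and Tsc22d1 by -0.41 with oxymatrine. In both lists 0 genes were 2-fold apart.

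Proliferation genes were mostly lower in the treated arrays. Of 15 genes above background, 3 were higher, 11 lower and 1 equal in each comparison with control, and 0 were 2-fold apart. Their median difference was -0.13 with astragaloside IV and -0.11 with oxymatrine, beside 0 for all genes. The oxymatrine median depended on the scaling, at -0.06 after quantile normalisation, -0.07 after lowess centring and -0.18 after median centring. Over all genes above background, 31.4% were higher and 40.8% lower with astragaloside IV, and 29.7% were higher and 46.0% lower with oxymatrine. The mitotic kinase gene Aurkb was at 9.98 with astragaloside IV, 9.73 with oxymatrine and 10.26 in control, and Birc5, which encodes survivin, was at 8.41 in both treated arrays and 8.65 in control. The replication gene Mcm5 differed by -0.31 with oxymatrine.

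**Figure D3:**
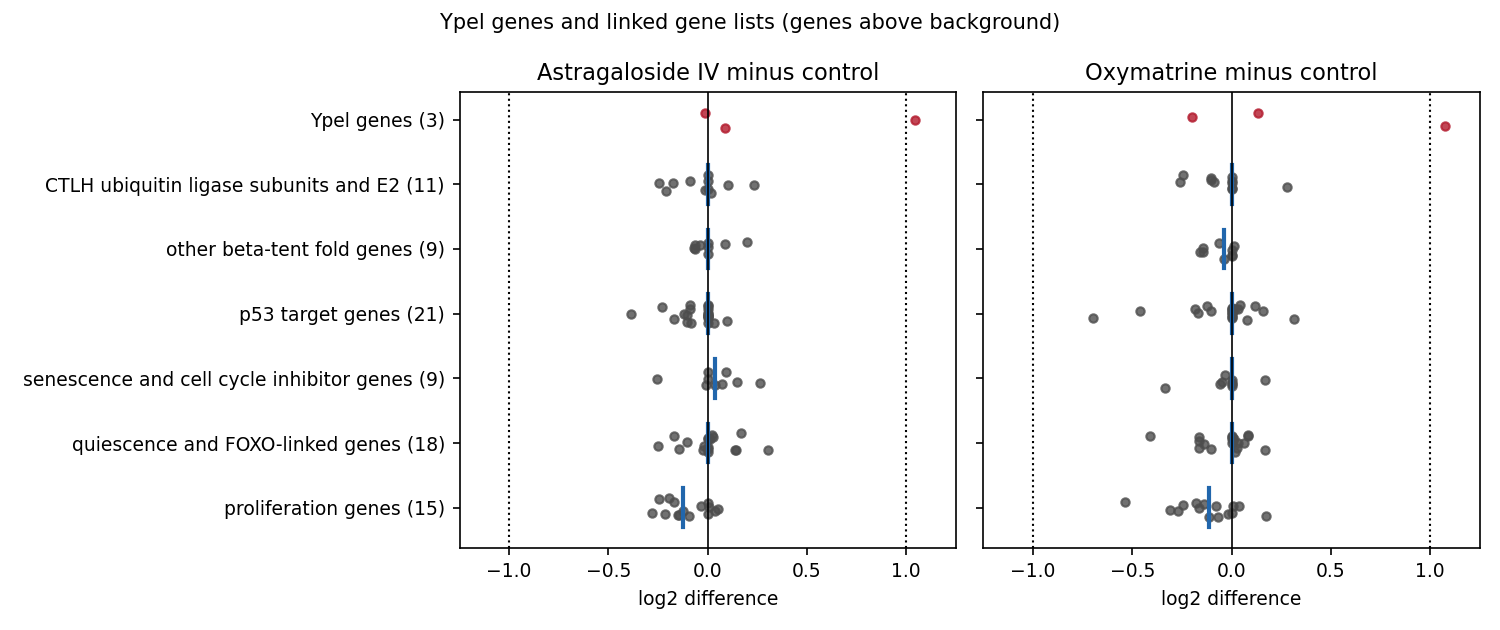
Log2 difference from control for Ypel genes (red) and for linked gene lists (grey), genes above background only, with astragaloside IV on the left and oxymatrine on the right; numbers in brackets count the genes, blue bars are list medians and dotted lines are 2-fold. Ypel1 is the single point past 2-fold in either panel.

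Markers of other lineages moved beside Ypel1 in part. The 5 lymphoid markers above background had a mean log2 level of 7.70 with astragaloside IV, 7.74 with oxymatrine and 8.03 in control. Il2rb, which had the largest differences of the 5, was at 6.32, 6.48 and 7.33 in the same order. Its difference of -1.01 with astragaloside IV was past 2-fold, beside 0.197% of all genes above background 2-fold apart in that comparison. With astragaloside IV 0 of the 5 were higher, 3 lower and 2 equal, and with oxymatrine 1 was higher, 3 lower and 1 equal. The 8 monocyte, macrophage and neutrophil markers averaged 11.10 with astragaloside IV, 11.19 with oxymatrine and 11.30 in control. Of these, 1 was higher, 5 lower and 2 equal with astragaloside IV, and 0 were higher, 4 lower and 4 equal with oxymatrine. The 8 conventional dendritic cell markers averaged 8.46 with astragaloside IV, 8.44 with oxymatrine and 8.54 in control. Of these 8, 3 were higher, 2 lower and 3 equal with astragaloside IV, and 2 were higher, 4 lower and 2 equal with oxymatrine. Itgae had the lowest difference of the 8 in both comparisons, at -0.73 with astragaloside IV and -0.49 with oxymatrine, and weighs on the mean. The 17 plasmacytoid dendritic cell markers averaged 10.71 with astragaloside IV, 10.70 with oxymatrine and 10.73 in control. Of those 17, 3 were higher and 7 lower than control with astragaloside IV, and 4 were higher and 11 lower with oxymatrine. The difference of Smim5 with oxymatrine, 1.32, was past 2-fold, beside 0.281% of all genes above background 2-fold apart. Without Smim5, an alternative chosen after seeing the data, the other 16 averaged 10.93 with astragaloside IV, 10.89 with oxymatrine and 11.00 in control. All 4 means were lower in the treated arrays, where Ypel1 was higher, though some markers in each list were equal to or above control. The part of these markers in the Ypel1 difference was not tested.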

How the data were processed

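RNA from 3 samples was measured on 1 whole-transcript array each. The authors made the deposited log2 expression values with RMA, per the submitters' processing notes. Which software and build were used is not given in the sources used here. Neither the base of the log nor the RMA variant is stated: values of 1.78 to 19.7 were taken as log2, although the top lies above the usual range. Of 28846 probe sets, 19572 had 1 gene symbol in the platform annotation, 0 had several and 9274 had none. For 55 genes with several probe sets the brightest was used. Background was the 95th percentile of the mean levels of 1410 olfactory and vomeronasal receptor genes, which 10671 of 19505 genes reached.

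Differences of log2 values were computed between arrays. Genes of like level were those in the same of 20 equal bins, made separately above and below background. With 1 array per group no test was possible, and the number of arrays limits the precision. Upstream sequences and gene order came from RefSeq (GRCm38.p6). The members, gene lists and rules were chosen with earlier results of these data known. Named were the 5 Ypel genes, the 6 named genes nearest in pattern to Ypel1, the adjacent protein-coding genes, up to 4 genes per list with the largest differences in each comparison, and lineage markers. Predicted genes were counted and not named. Alternatives were averaging over probe sets, centring on the median or by lowess (fraction 0.3), quantile normalisation, other level filters, a 1.5-fold threshold, and 10 bins, the 500 nearest genes or the central 68% for the spread. The marker mean without Smim5 was added after seeing the data. The calculations were tested on simulated data. Python 3.11.15, numpy 2.4.6, pandas 2.3.3, statsmodels 0.14.6 and matplotlib 3.10.9 were used.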

Additional observations from a re-analysis of the deposited data

How the results depend on the processing

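No paired analysis was possible because each group has 1 array, and no replicate could be left out. Under median centring, quantile normalisation, lowess centring and averaging over probe sets, the Ypel1 difference ranged from 0.99 to 1.06 with astragaloside IV and from 1.01 to 1.12 with oxymatrine. It fell under 2-fold only with median centring and astragaloside IV (0.99). With 10 bins, the 500 nearest genes or a width from the central 68%, it was 5.69 to 8.02 times the like-level spread with astragaloside IV and 5.19 to 7.26 times with oxymatrine. The central 68% width was taken over the same 533 genes, so it holds the same differences of exactly 0. The other member differences moved by less than 1 like-level SD, and list medians by less than 0.1 log2 units, which for the proliferation genes is near the size of the medians themselves (-0.18 to -0.10 with astragaloside IV and -0.18 to -0.06 with oxymatrine). Without Smim5, the mean difference of plasmacytoid dendritic cell markers was -0.08 with astragaloside IV and -0.11 with oxymatrine, in place of -0.02 and -0.03.

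Counts of 2-fold genes moved more. With astragaloside IV against control, 4 higher and 17 lower became 2 higher after median centring, 2 and 9 with the 99th percentile filter, 42 and 37 with no filter, and 90 and 137 at 1.5-fold. The split also moved by over 10 percentage points after median centring, to 2 higher and 23 lower. With oxymatrine against control, 14 higher and 16 lower became 9 and 29 after median centring, 10 and 24 after quantile normalisation, 7 and 10 with the 99th percentile filter, 57 and 33 with no filter, and 139 and 214 at 1.5-fold. Between astragaloside IV and oxymatrine, 9 higher and 8 lower became 35 and 47 with no filter and 156 and 119 at 1.5-fold, and 3 were lower with the 99th percentile filter. Fewer or more genes enter under another filter or threshold, and the cause of the moves under centring was not tested.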
